A study of Mus musculus with 6 samples.

Results

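The embryonic globin and red cell genes examined here were followed in RNA from the prospective lens of single mouse embryos. They were chosen by symbol from the annotation of an Illumina bead array, as the 9 genes Hba-x, Hba-a1, Hbb-bh1, Hbb-y, Slc4a1, Alas2, Car2, Klf1 and Gata1. Of these, 8 had a probe by symbol and together had 10 of the 46632 probes of the array, out of 17711 named genes. No probe carried the symbol Hbb-y in the annotation used, and its transcript was not analysed here. Tissue came from 3 Pax6-/- embryos, as surface ectoderm at the site of the lens, and from 3 wild-type embryos, as lens placode. All 6 were at embryonic day E10.25 on a mixed FVB and 129 background, and the 2 prospective lenses of an embryo shared 1 array. The tissue was cut from stained frozen sections of 10 microns with a laser, and 15 ng of total RNA was amplified per embryo. The labels do not describe the Pax6 allele or name the cells that lack it. The comparison asks how much red cell RNA each dissection carried, with and without Pax6.

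In the mouse embryo the first red cells are made in the yolk sac and enter the circulation as large nucleated cells. They carry haemoglobins built from embryonic alpha-like and beta-like chains, and later red cells from the liver carry adult chains. Haemoglobin needs heme, whose synthesis in red cells starts with the enzyme encoded by Alas2, and the transcription factors Gata1 and Klf1 switch on globin, heme and membrane genes together. The lens placode is an epithelium without vessels of its own, and blood runs in the mesenchyme and around the optic cup beside it. Red cell transcripts in such a dissection are therefore read as a measure of blood. In bulk tissue a larger number of red cells and more of a transcript per red cell cannot be told apart.

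The 250 bases before the start of 4 red cell genes are printed because these genes behaved alike or apart in the dissections: Hba-x and Hba-a1 had the most similar profiles over the embryos, Alas2 the one least like Hba-x, and the adult beta globin gene Hbb-bs had probes that disagreed. The sequences are RefSeq's, and capitals mark 4 motifs on either strand. The motif GATAA reads as TTATC on the other strand, the motif CACCC reads as GGGTG, the motif CCAAT reads as ATTGG, and the motif TATAA reads as TTATA.
Hba-x (GRCm38.p6, chr11:32276350-32276599, plus strand): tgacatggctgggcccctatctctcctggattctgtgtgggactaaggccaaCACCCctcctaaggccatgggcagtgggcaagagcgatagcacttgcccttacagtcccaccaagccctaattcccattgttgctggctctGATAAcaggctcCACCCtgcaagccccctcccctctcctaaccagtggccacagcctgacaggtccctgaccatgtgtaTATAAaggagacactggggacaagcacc
Hba-a1 (GRCm38.p6, chr11:32283422-32283671, plus strand): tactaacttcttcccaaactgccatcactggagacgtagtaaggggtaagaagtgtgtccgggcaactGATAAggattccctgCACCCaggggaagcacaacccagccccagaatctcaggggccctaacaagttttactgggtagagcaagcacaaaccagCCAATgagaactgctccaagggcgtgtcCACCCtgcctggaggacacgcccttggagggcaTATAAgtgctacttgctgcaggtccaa
Alas2 (GRCm38.p6, chrX:150547167-150547416, plus strand): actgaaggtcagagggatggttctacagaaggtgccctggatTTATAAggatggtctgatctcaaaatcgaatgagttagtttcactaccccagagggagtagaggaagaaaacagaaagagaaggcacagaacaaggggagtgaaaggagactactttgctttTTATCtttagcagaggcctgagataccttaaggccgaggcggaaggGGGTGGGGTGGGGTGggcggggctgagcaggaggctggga
Hbb-bs (GRCm38.p6, chr7:103827929-103828178, minus strand): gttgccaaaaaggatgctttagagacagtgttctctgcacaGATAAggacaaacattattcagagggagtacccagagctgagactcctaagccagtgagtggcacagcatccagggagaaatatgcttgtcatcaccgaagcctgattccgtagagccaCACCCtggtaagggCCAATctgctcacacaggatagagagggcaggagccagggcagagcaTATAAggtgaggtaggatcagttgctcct
GATAA is a core letter pattern bound by GATA factors and CACCC one bound by Klf factors. Hba-x held GATAA 107 bases and CACCC 95 bases before the start, with a second CACCC 198 bases before it. Hba-a1 held GATAA 182 bases before the start and CACCC at 167 and 60 bases. Alas2 held GATAA on the other strand 86 bases before the start and 3 copies of CACCC on the other strand at 40, 35 and 30 bases. In Alas2 TATAA and its reverse overlapped by all but 1 letter at 207 and 208 bases, far from the start, whereas TATAA lay 28, 27 and 29 bases before the start in Hba-x, Hba-a1 and Hbb-bs. A window was at hand for 6 of the 9 genes, and 5 of the 6 (all but Gata1) held both GATAA and CACCC. Of all 32851 RefSeq windows of this length, 22.6% held GATAA, 52.0% CACCC, 33.8% CCAAT, 22.8% TATAA and 10.1% both GATAA and CACCC. These matches describe the letters only.

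Levels are log2 intensities after background correction and quantile normalisation. A change is the Pax6-/- mean minus the wild-type mean, with the standard error (SE) from limma fitted over all 13805 genes or unnamed probes that passed the detection filter, which asks for a detection p under 0.05 on at least 3 arrays. Between 16335 and 17623 probes were above background on a Pax6-/- array and between 16876 and 18736 on a wild-type array, the most on wild-type array 1. Pax6 itself read 9.81, 9.95 and 10.13 in Pax6-/- tissue and 10.54, 10.19 and 10.73 in wild-type tissue (limma adjusted p = 0.623). Its other probes had changes of -0.99 and -0.82 (limma adjusted p = 0.388 and 0.391 over all probes), and on all 3 probes every Pax6-/- array was below every wild-type array. The allele is not described, and a probe outside its altered part checks nothing about genotype. Of the 18 surface ectoderm and placode markers on the array, 15 to 16 were above background on each Pax6-/- array and 16 on each wild-type array. The number of arrays, 3 per genotype, limits the precision of every value, and no exact permutation test of 3 against 3 can give a two-sided p below 0.1.

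Red cell transcripts were measured in the dissections of both genotypes, at higher mean levels in the Pax6-/- tissue. The SD over embryos was larger in wild type for 5 of the 6 genes that could be tested, and larger in Pax6-/- for Car2. Of the 8 genes with a probe, 6 passed the detection filter: Hba-x, Hba-a1, Hbb-bh1, Slc4a1, Alas2 and Car2. The mean level of these 6 genes was 8.87, 8.87 and 8.61 on Pax6-/- arrays 1, 2 and 3, against 7.82, 5.93 and 7.25 on wild-type arrays 1, 2 and 3. The SD over embryos was 0.15 in Pax6-/- and 0.97 in wild type (n = 3 each). The groups did not overlap on this mean, and wild-type array 1 lay 0.79 to 1.05 from the Pax6-/- arrays, 0.57 from wild-type array 3 and 1.89 from wild-type array 2. The mean includes Slc4a1, which was at background on wild-type arrays 2 and 3 and had the largest change of the 6 genes. Its Pax6-/- arrays alone took Slc4a1 past the filter, so part of the gap in the mean was favoured by that route. None of the 6 genes passed an adjusted p of 0.05 in limma, where 4 had an unadjusted p under 0.05, all higher in Pax6-/- (Slc4a1, with background levels on 2 wild-type arrays, among them). Of all genes tested, 0.0869% passed the adjusted threshold, 8 lower and 4 higher (0.0290%), and 8.95% the unadjusted threshold. The 12 genes that passed became 0 without wild-type array 1 or 2 and 1 without any other single array.

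Hba-x, which encodes the embryonic zeta globin chain, varied little in Pax6-/- embryos and widely in wild-type embryos. Its raw intensity was 736, 873 and 452 on the Pax6-/- arrays, against 585, 85.2 and 108.2 on the wild-type arrays. All 3 Pax6-/- embryos were above all wild-type embryos after normalisation, at 9.64, 9.72 and 8.89 against 8.55, 5.36 and 6.46, although wild-type array 1 exceeded Pax6-/- array 3 in raw intensity. The means were 9.42 ± 0.46 in Pax6-/- and 6.79 ± 1.62 in wild type (SD, n = 3 each), and the log2 change of 2.63 ± 0.82 missed the threshold (limma adjusted p = 0.406). Most of the wild-type spread came from 1 embryo: raw Hba-x signal on wild-type array 1 was 6.87 times that of array 2 and 5.41 times that of array 3. Without wild-type array 1 the change was 3.51 (limma adjusted p = 0.232), and without wild-type array 2 it was 1.92 (adjusted p = 0.602).

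Hba-a1 encodes the alpha globin chain used from the embryo to the adult, and its copy Hba-a2 is nearly identical, so the probe may read both. Its levels were 10.41, 10.36 and 9.65 in Pax6-/- embryos, against 9.83, 7.57 and 7.96 in wild-type embryos. The groups overlapped, because wild-type embryo 1 was above Pax6-/- embryo 3. The log2 change was 1.68 ± 0.64 (limma adjusted p = 0.520). In raw signal, wild-type array 1 (1268) matched Pax6-/- array 1 (1239) more closely than it did the other wild-type arrays (273 and 228).

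Hbb-bh1, which encodes the embryonic beta-H1 chain, showed the widest spread of the 6 genes. On the probe used it read 11.37, 11.62 and 10.95 in Pax6-/- embryos, against 10.73, 6.90 and 10.08 in wild-type embryos. Wild-type embryo 2 was far below the others, and wild-type embryos 1 and 3 lay below the lowest Pax6-/- embryo. In raw signal wild-type array 1 (2260) was above Pax6-/- array 3 (1780). The means were 11.31 ± 0.34 in Pax6-/- and 9.24 ± 2.05 in wild type (SD, n = 3 each), a change of 2.08 ± 1.01 (limma adjusted p = 0.634). Without wild-type array 2 the change was 0.91 (adjusted p = 0.658), so its size rests on that array. A second probe of Hbb-bh1 read 6.77, 6.51 and 5.00 in Pax6-/- embryos, against 5.20, 4.96 and 4.91 in wild-type embryos, and was above background on 2 and 1 arrays of the genotypes. Its change was 1.07 ± 0.50, also without passing (adjusted p = 0.626 over all probes).

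**Figure D1:**
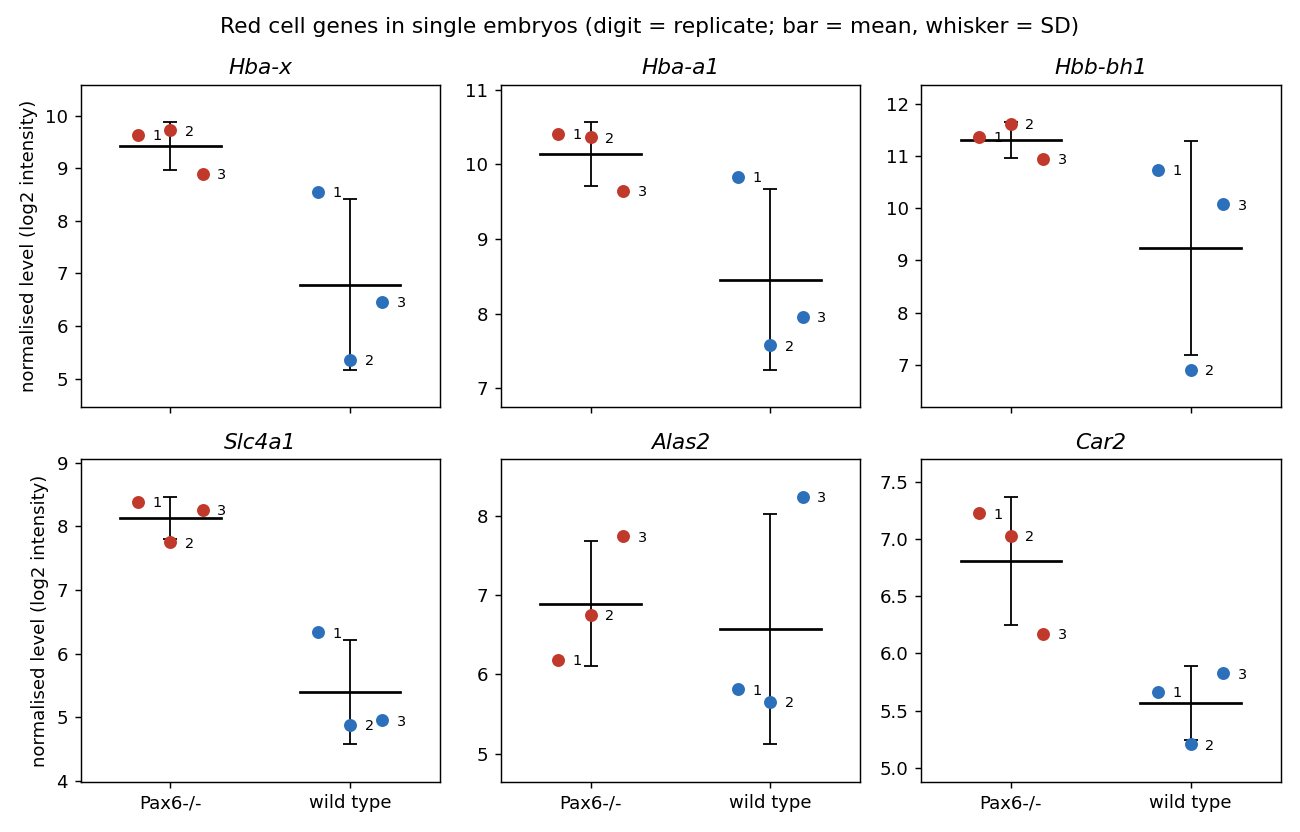
Normalised log2 intensity of the 6 red cell genes that passed the detection filter, with 1 point per embryo (3 Pax6-/- in red, left; 3 wild type in blue, right), the replicate number beside each point, and bars for the mean ± SD. Wild-type embryo 1 is the highest wild-type point for Hba-x (8.55), Hba-a1 (9.83), Hbb-bh1 (10.73) and Slc4a1 (6.34), and Alas2 is highest in wild-type embryo 3 (8.25).

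Slc4a1, which encodes the band 3 anion exchanger of the red cell membrane, had the smallest unadjusted p of the 6 genes. Its levels were 8.39, 7.75 and 8.26 in Pax6-/- embryos, against 6.34, 4.88 and 4.95 in wild-type embryos. Every Pax6-/- array was above every wild-type array. The probe was above background on all 3 Pax6-/- arrays but on 1 wild-type array, array 1, so the wild-type levels of arrays 2 and 3 are background. Its Pax6-/- arrays alone were enough to take it past the detection filter. The fitted log2 change was 2.74 ± 0.46, with an unadjusted p of 0.0011 and a limma adjusted p of 0.145, and its size and error rest on those background levels. In raw signal the probe read 327, 247 and 307 in Pax6-/- embryos, against 169.6, 56.2 and 53.1 in wild-type embryos.

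Car2 encodes carbonic anhydrase 2, which is abundant in red cells but is also made in other tissues, including neural and epithelial ones. It was dim, at 7.22, 7.03 and 6.17 in Pax6-/- embryos, against 5.67, 5.20 and 5.83 in wild-type embryos. The groups did not overlap after normalisation, and the gap between Pax6-/- embryo 3 and wild-type embryo 3 was small. The change was 1.24 ± 0.36 (limma adjusted p = 0.367). Among the wild type Car2 was highest in embryo 3 after normalisation and in embryo 1 in raw signal (113.6, against 76.4 and 85.5 in embryos 2 and 3). Raw signal on wild-type array 1 was also above that on Pax6-/- array 3 (103.5). A second Car2 probe was above background on 2 arrays in all, Pax6-/- array 1 and wild-type array 1, and was not tested.

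Alas2, the red cell form of the enzyme that starts heme synthesis, did not follow the globins. It read 6.19, 6.76 and 7.74 in Pax6-/- embryos, against 5.81, 5.65 and 8.25 in wild-type embryos. The highest of the 6 levels was in wild-type embryo 3, where Hba-x and Slc4a1 were low, and Pax6-/- embryo 1, rich in globin transcripts, had the lowest Alas2 of its genotype. The Pax6-/- range lay inside the wild-type range, with a change of 0.32 ± 0.81 (limma adjusted p = 0.918). The sign turned when Pax6-/- array 3, wild-type array 1 or wild-type array 2 was left out, at -0.085, -0.090 and -0.14.

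The 2 transcription factors were at or near background. Gata1 was not well above background on any of the 6 arrays, with raw intensities of 60.4, 62.2 and 61.4 in Pax6-/- embryos, against 66.3, 61.4 and 56.6 in wild-type embryos. Klf1 had raw intensities of 70.8, 62.7 and 55.7 in Pax6-/- embryos, against 137.3, 63.7 and 63.96 in wild-type embryos. It was above background on wild-type array 1 alone. Klf1 was not tested.

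Across the embryos, Hba-a1, Slc4a1 and Hbb-bh1 were the nearest to Hba-x among the 6 genes, and Alas2 was the furthest from it. Each gene's level was set against its own mean over the 6 arrays, and pairs of genes were compared by the root-mean-square (RMS) difference of these deviations, as a description. The closest pair was Hba-x and Hba-a1, at 0.55 on the log2 scale, followed by Hba-x and Slc4a1 at 0.64. Slc4a1 was at background on wild-type arrays 2 and 3, so its likeness to other genes rests partly on background levels. Hba-x and Hbb-bh1 differed by 0.68, with deviations of -1.65 and -0.20 in wild-type embryo 3, and Hba-a1 and Car2 by 0.69. Alas2 differed from Hba-x by 1.90 and from Slc4a1 by 1.72, and its smallest difference was 1.15, from Car2. After normalisation wild-type embryo 2 was the lowest of the 6 for every one of the 6 genes, which held for 20.0% of all genes tested (the lowest array was a wild-type one for 58.6%). In raw signal it was the lowest for 4 of the 6, with wild-type embryo 3 below it for Hba-a1 and Slc4a1, and for Slc4a1 both are at background and have no order. Pax6-/- embryo 1 or 2 was the highest for 5 of the 6, against 33.6% of all genes. Wild-type embryo 1 was the highest of its genotype for 4 of the 6 (Hba-x, Hba-a1, Hbb-bh1 and Slc4a1), against 27.9% of all genes, and for 3 of them by more than 1 on the log2 scale, against 5.80%. These genes share the arrays and, in blood, the cell, so they are not independent of each other.

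**Figure D2:**
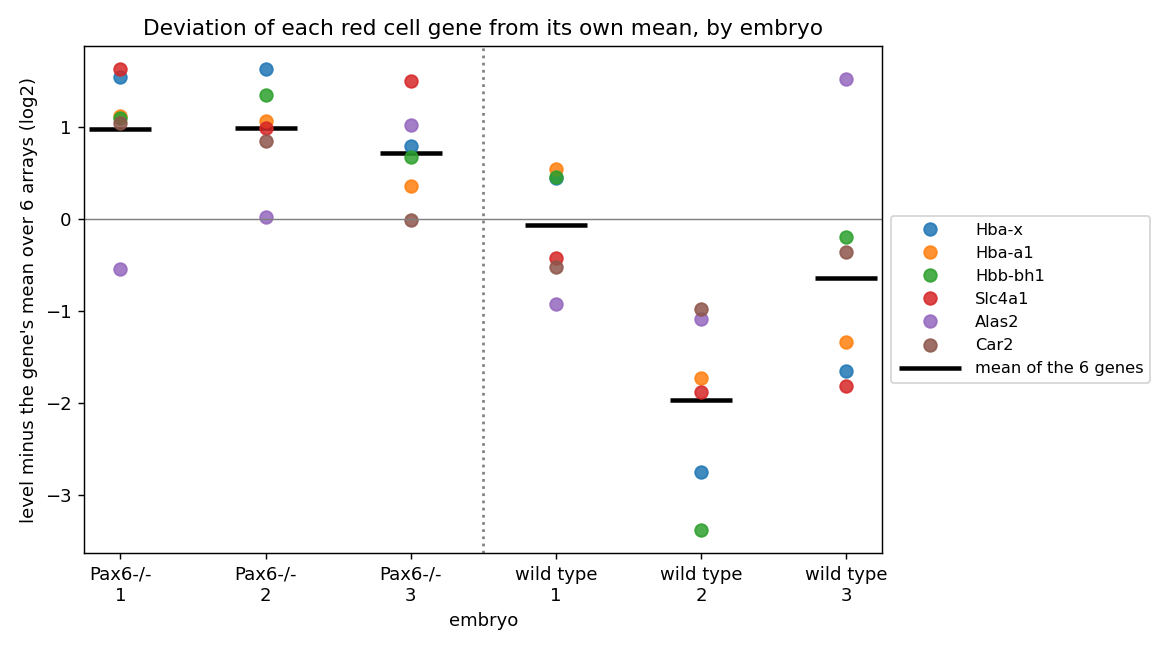
Deviation of each of the 6 genes from its own mean over the 6 arrays (log2, vertical axis) in each embryo (horizontal axis, Pax6-/- left, wild type right), with black bars for the mean of the 6 genes. The bars sit at 0.98, 0.98 and 0.72 in Pax6-/- embryos and at -0.071, -1.96 and -0.64 in wild-type embryos, and Alas2 goes against the others in Pax6-/- embryo 1 and wild-type embryo 3.

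Set beside all genes tested, the 6 red cell genes lay on the Pax6-/- side. All 6 had a positive change, against 56.0% of all genes, and 5 of the 6 exceeded 1 on the log2 scale, against 8.13%. Their median change was 1.88 and that of all genes was 0.071. After normalisation all Pax6-/- arrays were above all wild-type arrays for 4 of the 6 genes (Hba-x, Hbb-bh1, Slc4a1 and Car2). This held for 8.52% of all genes. For none of the 6 were all Pax6-/- arrays below, against 6.81%. Leaving out wild-type array 1 raised the 4 to 5 of 6, against 12.3%. In raw signal wild-type array 1 exceeded Pax6-/- array 3 for Hba-x, Hbb-bh1 and Car2. Slc4a1 is among the genes counted, but its Pax6-/- arrays alone took it past the filter. That route favours a level higher in Pax6-/-. The bead standard error of these probes was 1.65% to 5.79% of the signal over 17 to 52 beads, which leaves out the error of dissection, amplification and hybridisation. The member genes were chosen with earlier results of these data known, and the counts are a description.

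**Figure D3:**
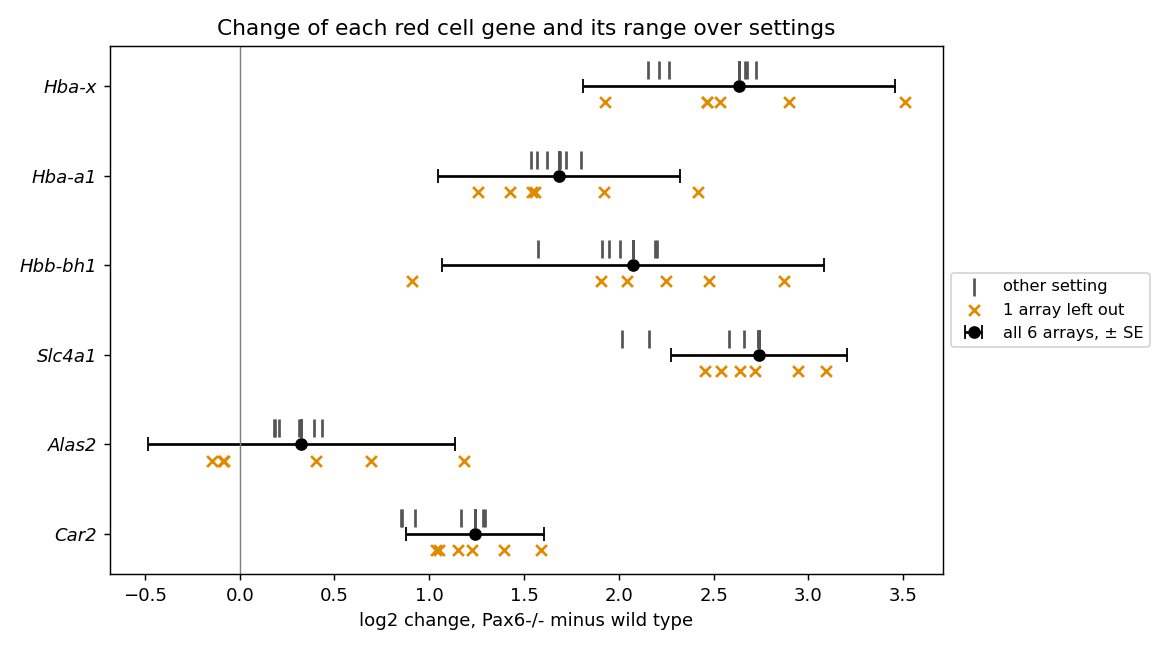
Log2 change, Pax6-/- minus wild type, of each red cell gene with its SE (black), under other processing settings (grey ticks) and with 1 array left out (orange crosses). Hba-x, Hba-a1, Hbb-bh1, Slc4a1 and Car2 stay above 0 at every mark, Hbb-bh1 drops to 0.91 without wild-type array 2, and Alas2 crosses 0.

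Probes for the adult beta globin genes did not give 1 order of embryos. Hbb-bs, Hbb-bt and Hbb-b2 are near-identical copies or strain forms of the adult beta chain gene, so a probe of 1 may read another. They had 11 probes, 10 of which passed the detection filter, and none of the 10 passed an unadjusted p of 0.05 or separated the genotypes. All 10 had a higher mean in Pax6-/- than in wild type, by 0.040 to 1.80. Of all genes tested 56.0% did, a share of genes and not of probes. The Hbb-b2 probe and the Hbb-bt probes ILMN_1227838 and ILMN_1236718 were above background on 3 Pax6-/- arrays and 1 wild-type array. Their Pax6-/- arrays alone took them past the filter, a route that favours a level higher in Pax6-/-. The 10 may read shared transcripts and are not independent. On 9 of them Pax6-/- embryo 3 was below the other Pax6-/- embryos. In 3 Hbb-bt probes wild-type embryo 1 was the highest of all 6, as on ILMN_1227838, which read 6.61, 5.88 and 5.34 in Pax6-/- embryos, against 7.55, 4.897 and 4.88 in wild-type embryos. In 3 other probes Pax6-/- embryo 3 and wild-type embryo 1 were the lowest, as on the Hbb-bt probe ILMN_1239117, which read 8.81, 9.47 and 5.74 in Pax6-/- embryos, against 5.51, 7.54 and 7.70 in wild-type embryos. The Hbb-bs probe ILMN_1223244 was high in all embryos and highest in Pax6-/- embryo 3, at 10.61, 11.26 and 11.77 in Pax6-/- embryos, against 9.59, 10.65 and 10.71 in wild-type embryos. Probes annotated to 1 gene thus ordered the embryos differently, and no single adult beta level was taken from them, apart from a globin sum given below. These probes were singled out after their values were seen. Hbb-b2 read 8.33, 7.31 and 5.44 in Pax6-/- embryos, against 5.07, 5.00 and 5.63 in wild-type embryos (log2 change 1.79, limma adjusted p = 0.567). It was not above background on wild-type arrays 1 and 2, so the size of that change rests partly on background levels.

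**Figure D4:**
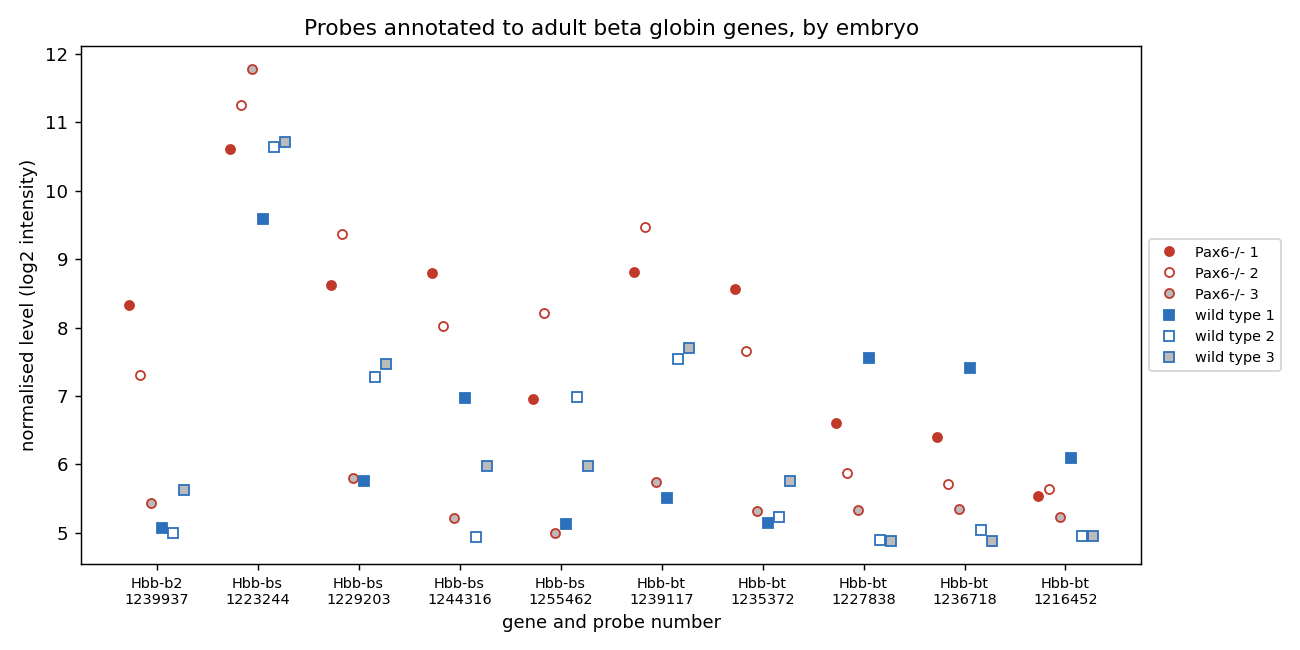
Normalised log2 intensity of the 10 detected probes annotated to adult beta globin genes, with 6 embryos per probe (Pax6-/- circles left, wild-type squares right; filled, open and grey for replicates 1, 2 and 3). Wild-type embryo 1 is highest on the 3 probes at the right, reaching 7.55, and near the bottom on the 3 probes where Pax6-/- embryo 3 is low too.

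The rest of the red cell programme was mostly dim or is made by many cell types, and none of its genes passed over all genes. Of 20 heme and iron genes on the array, 13 passed the detection filter, with a median change of 0.21 and none at an unadjusted limma p under 0.05. The smallest unadjusted p in that list was for Glrx5, a mitochondrial glutaredoxin of iron-sulphur cluster assembly, at a change of -1.15 (adjusted p = 0.594), and the iron store gene Fth1 had 1.29 (adjusted p = 0.599). Slc11a2, an iron importer, had 1.68 and Ppox, a late heme synthesis enzyme, 1.18. Of 22 red cell membrane and transport genes 6 passed the filter, and the 1 with an unadjusted p under 0.05 was lower: the glucose transporter gene Slc2a1 read 10.40, 10.28 and 10.34 in Pax6-/- embryos, against 11.17, 11.35 and 10.997 in wild-type embryos (adjusted p = 0.304). The membrane gene Epb42, the blood group gene Kel and Ermap were not above background on any array. Rhag, a red cell membrane channel of the Rh family, had 3 probes, none of which passed the filter, and at least 1 of them was above background on 3 Pax6-/- arrays and 1 wild-type array. Dmtn, Add2 and Add1, which encode cytoskeletal proteins, had changes of 0.31, 0.20 and -0.28.

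Of 21 further transcription factors of red cell development, 15 passed the filter, with 0 higher and 2 lower at an unadjusted limma p under 0.05, against 4.24% and 4.70% of all genes. The 2 were Myb, a factor of immature blood cells and of many dividing cells, and Mafg, a small Maf partner factor. Myb read 7.22, 7.16 and 7.16 in Pax6-/- embryos, against 8.58, 9.06 and 8.66 in wild-type embryos, a change of -1.59 (adjusted p = 0.117). The change of Mafg was -0.90 (adjusted p = 0.456). Ldb1, an adaptor in the GATA complex that is made widely, had all Pax6-/- embryos above the wild type (1.57, adjusted p = 0.599), and Lmo2, its partner in blood and endothelium, had 1.31. Gfi1b and Nfe2 were not above background on any array, and Tal1 was on 3 Pax6-/- arrays and 1 wild-type array. The erythropoietin receptor gene Epor was not above background on any array, and Kit, a receptor of blood progenitors and melanoblasts, read 8.05, 7.63 and 5.01 in Pax6-/- embryos, against 5.38, 5.51 and 5.30 in wild-type embryos (adjusted p = 0.677). Socs3, Stat5b and Jak2, which act in cytokine signalling, had changes of -0.68, 0.83 and 0.17. Of 19 red cell enzyme and maturation genes 11 passed the filter, with a median change of -0.33. Among them the antioxidant enzyme gene Gpx1 was lower in Pax6-/- at 5.97, 7.26 and 7.59, against 9.31, 8.92 and 8.49 in wild type (adjusted p = 0.291), and Adipor1, Gclm and Pklr had changes of -0.55, -1.14 and 1.15. The carbonic anhydrase gene Car1, a marker of later red cells, was not above background on any array.

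Markers of other tissues beside the placode were measured on the same arrays. The summed linear level of 8 detected endothelial genes of 17 was 930 to 1201 on Pax6-/- arrays and 619 to 713 on wild-type arrays. Cldn5, an endothelial tight junction gene, was higher in all Pax6-/- embryos (2.23, limma adjusted p = 0.145) and Egfl7, a secreted endothelial factor, lower in all (-1.35, adjusted p = 0.339). Kdr and Emcn were also higher in all, by 0.43 and 0.40 (limma adjusted p = 0.623 and 0.704). That made 3 of the 8 higher in every Pax6-/- embryo, against 8.52% of all genes, and 1 lower, against 6.81%. Of the 8 genes 6 had a positive change, against 56.0%, and Egfl7 and Ramp2 a negative one. Erg, Sox18 and Tie1 were not above background on any array. The sum of 9 optic cup and neuroectoderm genes of 15 was 1906 to 2325 on Pax6-/- arrays and 1008 to 1374 on wild-type arrays, and without Zic1 the ranges overlapped, at 1165 to 1486 and 869 to 1277. Zic1, a neural transcription factor, read 8.71, 9.85 and 10.01 in Pax6-/- embryos, against 6.05, 6.61 and 8.40 in wild-type embryos, and was singled out after its values were seen. Rax and Otx2 had changes of 1.90 and 2.12 (limma adjusted p = 0.308 and 0.313). Rax was above background on 1 wild-type array only, so the size of its change rests partly on background levels. Of the 9 genes 6 had a positive change, against 56.0% of all genes. Rax is among the 6, but its Pax6-/- arrays alone took it past the filter, a route that favours a level higher in Pax6-/-. The 3 negative ones were Sfrp1, Nes and Mitf, at -0.63, -0.36 and -0.31, and Tbx5, Lhx2 and Six6 overlapped between the genotypes. Fabp7, Hes5, Pou3f2, Vax2 and Zic2 were at background throughout. The sum of 12 mesenchyme and neural crest genes of 17 overlapped between the genotypes, at 5558 to 6686 and 3604 to 5905. Pdgfra weighed more in the wild-type sums (-3.81, limma adjusted p = 0.172). It read 5.11, 7.96 and 6.71 in Pax6-/- embryos, against 10.19, 10.42 and 10.60 in wild-type embryos. Of the 12 genes 9 had a positive change, against 56.0% of all genes. In every Pax6-/- embryo 4 of the 12 were higher, against 8.52%, and Pdgfra alone was lower. Foxc1, Snai1 and Sox10 were at background. Twist2, at background in all wild-type embryos, was at least 2.96-fold higher in Pax6-/- (limma adjusted p = 0.129), and its Pax6-/- arrays alone took it past the filter. Wild-type array 1, the wild-type array with the most Hba-x, Hba-a1 and Hbb-bh1, had the highest endothelial sum of its genotype (713) and the lowest optic cup sum (1008). Its summed level of the adult beta and other globins was also the lowest of its genotype, at 890 against 1874 and 1981 on wild-type arrays 2 and 3. That sum takes the brightest probe per gene and rests mostly on the Hbb-bs probe ILMN_1223244 (9.59, 10.65 and 10.71 in wild-type embryos). On 3 Hbb-bt probes wild-type embryo 1 was instead the highest of all 6, so the order depends on the probe. The part of these tissues in the red cell levels was not tested.

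Few markers of other blood cells passed the filter. Of 16 macrophage and white cell genes 3 passed the filter, with summed levels of 111.1 to 392.3 on Pax6-/- arrays and 128.1 to 572 on wild-type arrays. The number above background was 4, 2 and 3 of 16 on the Pax6-/- arrays, against 8, 1 and 2 on the wild-type arrays, so wild-type array 1 had the most, as it had the highest sum, and the part of white cells in its red cell levels was not tested. Ptprc, Spi1, Cd14, C1qa, C1qc, Fcer1g and Lyz1 were not above background on any array. Tyrobp and Mrc1 had changes of -0.24 and -0.65. Of 10 platelet and megakaryocyte genes 3 passed, with sums of 136.0 to 251 and 139.2 to 284, and Itga2b, Ppbp, Gp5, Gp9 and Vwf were at background. Gp1bb, a platelet receptor subunit, was higher in all Pax6-/- embryos (0.89, limma adjusted p = 0.310), and Plek, a platelet and white cell protein, was not above background there and at least 2.14-fold lower (adjusted p = 0.291). The wild-type arrays alone took Plek past the filter, a route that favours a level lower in Pax6-/-. Of 9 yolk sac and plasma protein genes, Apoa1 alone passed the filter, at a change of -0.0012 (adjusted p = 0.999). Alb, Ttr and Apob were at background.

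The genes whose pattern over the 6 arrays was most like the mean of the red cell genes were not red cell genes by name. By RMS difference of mean-centred levels, among 8269 named genes above background on at least 4 arrays, the nearest 10 lay at 0.18 to 0.34, against a median of 1.13. They were Phldb2, Cyth3, Trim2, Rem2, Pex11a, Col5a1, Pank4, Cblb, Limd1 and Tra2b. The closest, Phldb2, a cortical adaptor protein gene, read 10.53, 10.63 and 10.52 in Pax6-/- embryos, against 9.83, 8.04 and 9.40 in wild-type embryos. Col5a1, a fibrillar collagen chain gene of connective tissue, read 10.21, 10.36 and 9.87 in Pax6-/- embryos, against 9.09, 8.15 and 8.85 in wild-type embryos. All 10 were lowest in wild-type embryo 2 and higher in every Pax6-/- embryo than in every wild-type embryo, which the choice by likeness favours. None passed over all genes in limma (adjusted p of 0.183 to 0.557).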

How the data were processed

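Per the file headers, the deposited raw table gives a linear intensity per probe and array, the mean over its beads, beside the bead-to-bead standard error in signal units, the bead number and a detection p-value. The deposited p-values were made with GenomeStudio, per the submitters' processing notes, version not stated. A second table holds intensity values processed by the authors in a way no source here describes. It is linear, reaches below 0, and served as an alternative after adding 32 and taking log2.

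Each probe was named from the platform annotation, checked by gene ID against RefSeq (GRCm38.p6, 0 symbols changed). Of 46632 probes, 29976 had 1 symbol, 10 several and 16646 none. Intensities went through limma 3.58.1 (R 4.3.3) by neqc with an offset of 16. Probes with a detection p under 0.05 on at least 3 arrays (17751) entered, with the brightest probe per gene. The offset and quantile step shrink changes of dim genes. Models (lmFit, eBayes) had no covariates, with Benjamini-Hochberg adjustment over all 13805 genes, and were tested on simulated data. Groups and replicate numbers came from sample titles. Embryos count as replicates per the series' design text. Replicate numbers did not pair embryos. Alternatives covered background, normalisation, filters, probe rule, replicate block, array weights and leaving out each array. Named genes were all red cell members, up to 4 genes of smallest p per wider red cell list, up to 2 per other list, and the 10 genes nearest in pattern. The members and lists were chosen with earlier results of these data known.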

Additional observations from a re-analysis of the deposited data

How the results depend on the processing

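Under every alternative none of the red cell genes passed an adjusted p of 0.05 in limma, with 1 to 5 of them at an unadjusted p under 0.05. The mean red cell level was 1.78 higher in Pax6-/- (log2), 1.46 to 1.86 over the other settings that kept the 6 genes and 1.24 to 2.17 with 1 array left out. With detection p under 0.01 required on all 6 arrays it was 1.88, as a mean of 2 genes. Hba-x, Hba-a1, Hbb-bh1, Slc4a1 and Car2 had a positive change wherever they could be tested, Slc4a1 from 2.02 to 3.09. Alas2 turned to -0.085 without Pax6-/- array 3, -0.090 without wild-type array 1 and -0.14 without wild-type array 2, and reached 1.18 without wild-type array 3. Of the genes with every Pax6-/- array above every wild-type array, 4 in the report, 1 was left with detection p under 0.01 required on all 6 arrays, where 2 genes could be tested, and 4 to 5 with 1 array left out. Over all genes the 12 that passed (4 higher, 8 lower) became 5 with median scaling (0 and 5), which moved the median of all genes to 0.19. They became 2 with no background correction (0 and 2), 6 with an offset of 50 (1 and 5), 7 in the authors' processed table (2 and 5), 0 with the stricter detection filter (499 at an unadjusted p under 0.05), 3 with no filter (1 and 2), 28 with probes averaged (12 and 16), 11 with cyclic loess (1 and 10) and 0 to 1 with 1 array left out (996 to 1444 at an unadjusted p under 0.05). The replicate block gave 0 (1189 at an unadjusted p under 0.05), and same-numbered embryos did not deviate together (correlations of 0.0053, 0.0022 and -0.017, and not every embryo was closest to its own number). The cause of these shifts was not tested. Signal over background limits Slc4a1 in wild type, Klf1 and Gata1.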

Other observations

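In the authors' processed table, which is linear and reaches below 0, Hba-x stood at 755, 799 and 437 in Pax6-/- embryos and at 342, 31.9 and 83.6 in wild-type embryos. Slc4a1 stood at 305, 197.7 and 279 in Pax6-/- embryos and at 77.8, -2.85 and 3.13 in wild-type embryos, below or near 0 where its probe was not above background. Klf1 stood at 20.6, 12.5 and 4.23 in Pax6-/- embryos and at 59.1, 7.09 and 24.6 in wild-type embryos.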
